A study of Mus musculus with 18 samples.

Results

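*Cxcl12* and *Cxcr4* encode a secreted chemokine and the receptor it activates. Both were taken by gene symbol, and they are 2 of the 23038 symbols in the deposited count table of the cortex. The deposited splicing table, with 1991 events, holds 1 event of *Cxcl12* and 0 events of *Cxcr4*. *Cxcl12* (ENSMUSG00000061353) lies on chromosome 6 from 117118553 to 117131385 on the plus strand of mm9, and *Cxcr4* (ENSMUSG00000045382) lies on chromosome 1 from 130484776 to 130488870 on the minus strand.

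CXCL12 is a small protein that cells follow along its gradient. It is held near its source by heparan sulfate and is removed by ACKR3, an atypical receptor that takes it up. CXCR4 is a receptor coupled to inhibitory G proteins, and in the embryonic forebrain the meninges are a known source of CXCL12, while Cajal-Retzius cells and migrating interneurons are known to carry CXCR4. Splicing gives *Cxcl12* several last exons, so that its proteins share their receptor-binding part and differ in their tails.

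RNA was measured by RNA-seq in CD1 mouse cortex at embryonic day 18.5, in 12 mice. They formed 4 groups of 3: *Nova2-/-* mice with wild-type mice from their litters, and *Nova1-/-* and wild-type mice of the *Nova1* litters. NOVA1 and NOVA2 are neuronal RNA-binding proteins that control splicing. In the *Nova2-/-* line a cassette took the place of the first exon, so RNA from the rest of the gene can still be counted, and the *Nova2* level was 18.8 ± 2.42 CPM (SD, n = 3) in *Nova2-/-* against 34.7 ± 5.34 CPM (SD, n = 3) in wild-type mice. *Nova1* was at 0.119 ± 0.0889 CPM (SD, n = 3) in *Nova1-/-* against 62.8 ± 18.7 CPM (SD, n = 3) in wild-type mice. CPM is the count of a gene relative to the scaled total of its library. The wild-type mice were placed with their litters by the numbers in their labels. Total counts ran from 16518172 to 31362018 per mouse, the smallest being that of wild-type replicate 2 of the *Nova2* litters, which also had the most genes detected, 21791, where the others had 18397 to 19396. All 10 cortical projection neuron markers were tested, and their summed level was between 3974 and 4785 CPM in every mouse. It was 3974 to 4402 CPM in *Nova2-/-* mice, below the 4407 to 4785 CPM of their wild-type littermates. In the wild-type mice of the *Nova1* litters it was 4080 to 4158 CPM, and in *Nova1-/-* mice 4138 to 4251 CPM.

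The *Cxcl12* splicing event is an alternative 3′ splice site on the plus strand, chr6:117123510-117131386. This span starts at exon 3 and reaches the end of the gene. In the mm9 annotation, 3 protein-coding transcripts of *Cxcl12* share exons 1 and 2 and differ from exon 3 on. Cxcl12-001 ends inside a long exon 3 and has 89 codons. Cxcl12-002 joins the end of exon 3, at base 117123596, to a last exon that begins at 117128601, and has 93 codons. Cxcl12-003 joins the same donor to a last exon that begins at 117126104, 2497 bases nearer, and has 119 codons. The last exon contributes 13 coding bases in Cxcl12-002 and 91 coding bases in Cxcl12-003, and the rest of it is 3′ UTR. These are the only 2 annotated acceptors within the span, and they are shown because the event turns on the choice between them. Each line gives 30 bases of mm9 from 5′ to 3′, and capitals mark the first pair of intronic bases at the donor and the last pair at each acceptor.
Donor of exon 3, chr6:117123587-117123616: ctttaaacaaGTaagcacaacagcccaaag
Nearer acceptor, chr6:117126084-117126113: ttctactaattttatctaAGggggcgcaga
Farther acceptor, chr6:117128581-117128610: tcctctgttcttgtcaacAGgaggctcaag

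The deposited *Δ*I is the inclusion fraction in wild-type minus that in knockout mice, 1 value for a comparison, with no replicate values and no read counts, so its depth is unknown. For *Cxcl12* *Δ*I was 0.432 in *Nova2-/-* cortex (FDR = 0.000164), 0.00863 in *Nova1-/-* cortex (FDR = 1) and 0.207 in *Nova1-/-* midbrain and hindbrain (FDR = 1), where FDR is the authors' adjusted p-value. The table does not say which acceptor counts as inclusion, so *Δ*I is given here as the size of the shift between the acceptors and not as its direction. The table lists events the study had called in *Nova2-/-* cortex, and 100% of them pass |*Δ*I| of at least 0.1 and FDR below 0.1 there. The passing of the *Cxcl12* event in *Nova2-/-* cortex is thus no finding. In *Nova1-/-* cortex 0.907% of the events with a value passed both limits and in *Nova1-/-* midbrain and hindbrain 5.98% did, and the *Cxcl12* event was not among them. No test of the difference between the knockouts could be made from these values.

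Among the 49 alternative 3′ splice site events of the table, the *Cxcl12* event had the 9th largest |*Δ*I| in *Nova2-/-* cortex, where the median was 0.227 and the largest was 0.611. In *Nova1-/-* midbrain and hindbrain it had the largest |*Δ*I| of the 49, against a median of 0.0407, with the FDR of 1 given above. In *Nova1-/-* cortex it was the 41st.

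**Figure D1:**
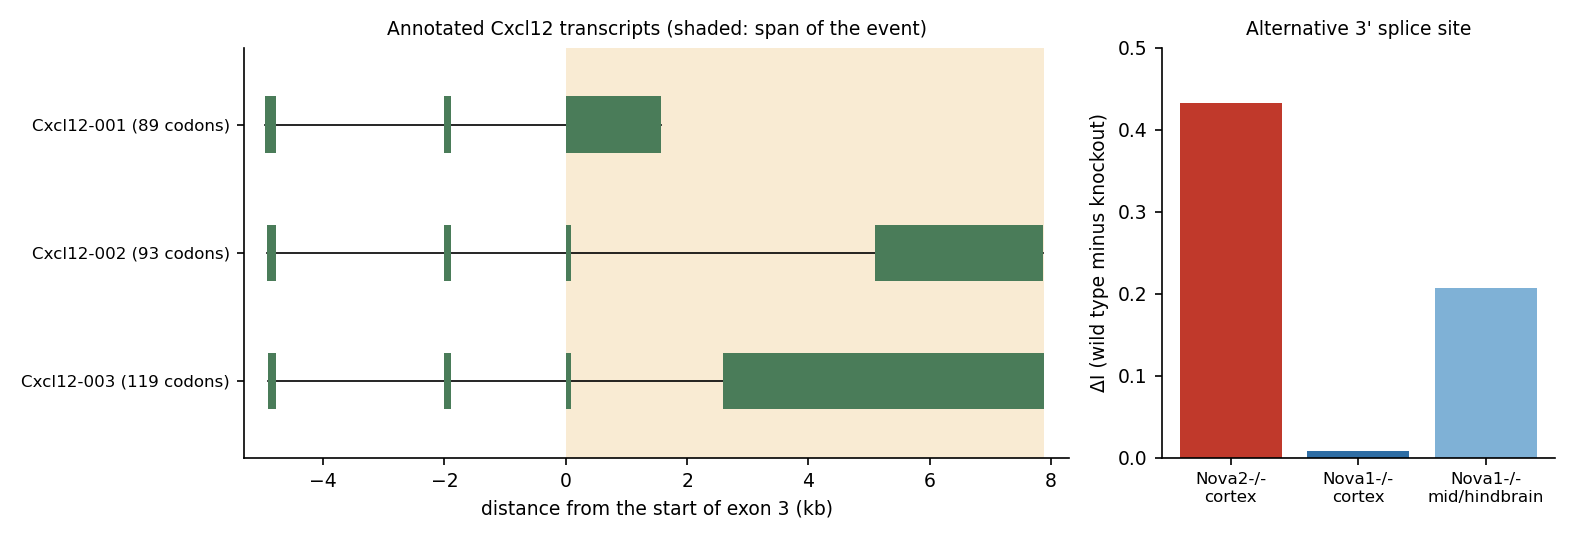
The left panel draws the 3 protein-coding *Cxcl12* transcripts to scale against the distance from the start of exon 3 in kb, with exons as boxes, introns as lines and the span of the event shaded. The right panel gives the deposited *Δ*I, 1 value for each knockout and region without error bars: 0.432, 0.00863 and 0.207.

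NOVA proteins bind the RNA motif YCAY, which in the DNA letters used here is TCAT or CCAT, or the same ending in C (TCAC or CCAC), and the study kept events with such a motif in NOVA-bound clusters, so its presence in the gene is not independent of the table. The motif was searched on the sense strand only, and overlapping matches were counted. The 100 bases after the donor, intronic in Cxcl12-002 and Cxcl12-003, held 0 matches, as did the 100 bases before the nearer acceptor. The 100 bases before the farther acceptor held 1 match. Of the 191507 annotated acceptors of protein-coding genes with an intron of this length, 81.4% had at least 1 match in the same window, with a median of 2. Matches were farther away. The 2507-base intron up to the nearer acceptor held 41. Exon 3 of Cxcl12-001 runs on to base 117125087, so the first part of this intron is exonic in that transcript. The 2497 bases between the acceptors, exonic in Cxcl12-003, held 41. The 2786 bases from the farther acceptor to the end of the span held 53. The densest 30 bases of the first and of the last stretch are shown as examples of where the motif is repeated, and capitals mark the matches.
Intron after exon 3, chr6:117123877-117123906: tagctTCATccCCATtctccTCATccTCAT
Last exon, chr6:117129101-117129130: tcTCATCCATCCATCCATCCATCCATTCAT
These hold 4 and 7 matches. The 30 bases with 4 matches are intronic in Cxcl12-002 and Cxcl12-003 but lie within exon 3 of Cxcl12-001. A run of 30 bases with as many matches made up 0.686% and 0.145% of all such runs in its own stretch. The match is one of letters, and binding was not measured in these files.

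*Cxcl12* transcripts were most abundant in the *Nova2-/-* cortex. The levels in *Nova2-/-* mice were 43.4, 38.7 and 39.7 CPM, and those in their wild-type littermates were 17.6, 21.6 and 31.1 CPM. Every *Nova2-/-* mouse lay above every wild-type littermate, and wild-type replicate 3 lay far above the other two. The underlying counts were 864 to 976 in *Nova2-/-* and 359 to 928 in wild-type mice. The means were 40.6 ± 2.47 CPM (SD, n = 3) and 23.4 ± 6.91 CPM (SD, n = 3), and the log2 fold change was 0.80 with a standard error of 0.19 and a 95% interval from 0.36 to 1.23. This difference did not pass an FDR of 0.05 (unadjusted p = 0.00266, adjusted p = 0.0854, edgeR's quasi-likelihood F test, Benjamini-Hochberg adjusted over 15691 genes). In the same comparison 0.695% of the genes tested were called higher, 19.2% had an unadjusted p below 0.05, and 12.4% had 3 *Nova2-/-* mice above all 3 wild-type mice. By log2 fold change *Cxcl12* was the 437th highest of the 15691 genes, and by p it was the 489th.

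The call for *Cxcl12* depended on the fit and on wild-type replicate 3. Without that mouse the log2 fold change was 1.07 (adjusted p = 0.00113, the same edgeR test), and with each other mouse left out it was 0.62 to 0.82 with an adjusted p of 0.160 or more. The dependence was not particular to *Cxcl12*. Over all genes the fit without that mouse called 951 higher and 482 lower of 15874, against 109 and 57 of 15691 with it. DESeq2 gave an adjusted p of 0.00170, and edgeR with all 12 cortices in the fit gave 0.0116. These too called more genes in all, with 454 higher and 352 lower of 22499 in DESeq2. The fit of 12 called 686 and 648 of 16210.

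The 3 lowest *Cxcr4* levels of the *Nova2* litters were those of the *Nova2-/-* mice. The levels were 25.8, 26.5 and 22.9 CPM in *Nova2-/-* mice and 28.9, 31.6 and 31.1 CPM in wild-type littermates. The groups did not overlap here either, with every *Nova2-/-* mouse below every wild-type mouse, as was so for 14.0% of the genes tested. The means were 25.0 ± 1.89 CPM (SD, n = 3) and 30.5 ± 1.44 CPM (SD, n = 3). The log2 fold change was -0.27 with a standard error of 0.10, and it did not pass the test (unadjusted p = 0.0200, adjusted p = 0.182, edgeR's quasi-likelihood F test, Benjamini-Hochberg adjusted), in a comparison that called 0.363% of genes lower. *Cxcr4* was 14108th of 15691 from the highest log2 fold change and 1717th by p. None of the alternatives tried gave it an adjusted p below 0.05.

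In *Nova1-/-* cortex neither gene differed beyond the spread between mice. *Cxcl12* was at 30.6, 31.6 and 27.8 CPM in *Nova1-/-* mice and at 30.9, 25.7 and 32.0 CPM in wild-type littermates, and these groups overlapped. The log2 fold change was 0.02 with a 95% interval from -0.19 to 0.23 (adjusted p = 0.970, edgeR's quasi-likelihood F test, Benjamini-Hochberg adjusted over 15901 genes). *Cxcr4* was at 24.2, 25.2 and 29.1 CPM in *Nova1-/-* mice and at 31.6, 26.2 and 24.4 CPM in wild-type littermates. These groups overlapped too, with a log2 fold change of -0.07 and a 95% interval from -0.31 to 0.17 (adjusted p = 0.922, the same edgeR test). That comparison called 0.00629% of genes higher and 0.00629% lower, which is 1 gene each way.

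**Figure D2:**
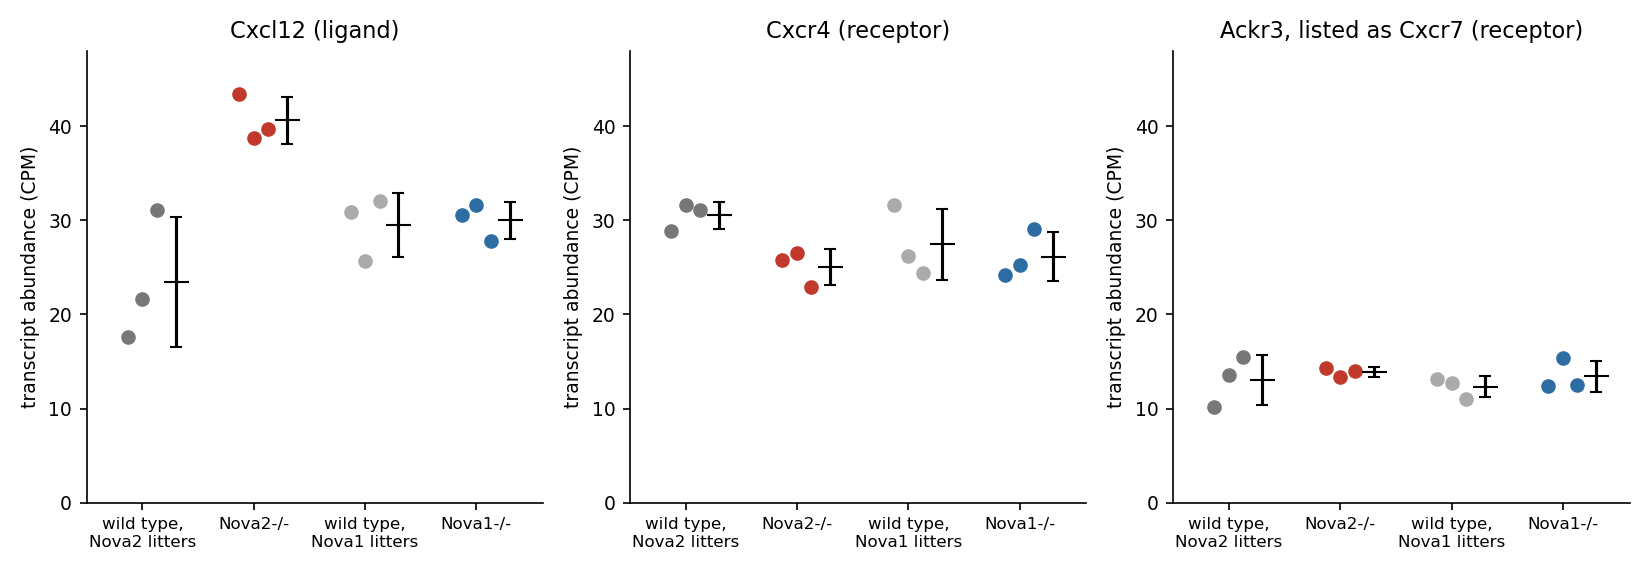
Transcript abundance in CPM of *Cxcl12*, *Cxcr4* and the atypical receptor gene *Ackr3* in the 12 cortices, with 1 point for each mouse and the mean and SD of 3 mice beside them. The *Nova2-/-* mice hold the highest *Cxcl12* levels, 38.7 to 43.4 CPM, and all other mice lie at or below 32.0 CPM.

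Across the 4 groups the order of *Cxcl12* means was *Nova2-/-*, then *Nova1-/-* (30.01 ± 1.95 CPM, SD, n = 3) and the wild-type mice of the *Nova1* litters (29.5 ± 3.39 CPM, SD, n = 3), then the wild-type mice of the *Nova2* litters. Only *Nova2-/-* stood clear of its neighbour in this order, since the other 3 groups overlapped one another. The wild-type mice of the *Nova1* litters were 0.34 above those of the *Nova2* litters on the log2 scale (standard error 0.19, adjusted p = 0.359, edgeR's quasi-likelihood F test, Benjamini-Hochberg adjusted), in a comparison of wild-type cortices that called 3.03% of genes. Without wild-type replicate 3 of the *Nova2* litters this difference was 0.62 (adjusted p = 0.00397, the same edgeR test). Leaving out that mouse raised the calls over all genes as well. They were 2080 higher and 1481 lower of 15986 without it, against 287 and 196 of 15918 with it. For *Cxcr4* the order of means was wild-type of the *Nova2* litters, wild-type of the *Nova1* litters (27.4 ± 3.76 CPM, SD, n = 3), *Nova1-/-* (26.1 ± 2.58 CPM, SD, n = 3) and *Nova2-/-*, and each group overlapped the next. The wild-type cortices differed by -0.14 (adjusted p = 0.529, the same edgeR test).

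The change of *Cxcl12* in *Nova2-/-* exceeded that in *Nova1-/-* by 0.76 on the log2 scale, with a standard error of 0.23 and a 95% interval from 0.27 to 1.25. The test of this difference did not pass (unadjusted p = 0.00484, adjusted p = 0.10, edgeR's quasi-likelihood F test, Benjamini-Hochberg adjusted over 16210 genes), in a fit that called 1.83% of genes. It passed with DESeq2 (adjusted p = 0.0294) and, in edgeR, without wild-type replicate 3 of the *Nova2* litters, where the difference was 1.05 (adjusted p = 0.0010). Over all genes DESeq2 called 501 higher and 349 lower of 22618. The edgeR fit without that mouse called 728 and 277 of 16330. For *Cxcr4* the difference was -0.21 with a 95% interval from -0.55 to 0.13 (adjusted p = 0.511, the same edgeR test).

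Since *Cxcl12* was higher and *Cxcr4* lower in each *Nova2-/-* mouse, the ratio of their counts within a mouse combines both differences. The ligand had 1.69, 1.46 and 1.73 counts for each receptor count in *Nova2-/-* mice, and 0.610, 0.685 and 1.0 in wild-type littermates. The mean log2 ratio was 0.70 ± 0.13 (SD, n = 3) against -0.42 ± 0.37 (SD, n = 3), a difference of 1.12. With 3 mice against 3 the two-sided exact permutation test gave p = 0.1, the smallest it can give. This outcome was fixed in advance, because each gene had already separated the groups, in opposite directions. The test therefore adds no support. In the *Nova1* litters the mean log2 ratio was 0.20 ± 0.23 (SD, n = 3) in *Nova1-/-* and 0.11 ± 0.25 (SD, n = 3) in wild-type mice, a difference of 0.09 (two-sided exact permutation p = 1). A count ratio is not a ratio of molecules, because the transcripts differ in length. Per kb of annotated exon, of which *Cxcl12* has 8.18 kb and *Cxcr4* 1.81 kb, *Cxcr4* had the higher level in every group. In *Nova2-/-* cortex its level was 13.9 ± 1.05 CPM per kb (SD, n = 3), against 4.97 ± 0.303 CPM per kb (SD, n = 3) for *Cxcl12*. These lengths pool the exons of all annotated transcripts, and no single *Cxcl12* transcript holds all of the 8.18 kb. The exons of Cxcl12-001 have only 182, 118 and 1578 bases. The mix of transcripts was not measured, so the order of the genes in molecules is not known.

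**Figure D3:**
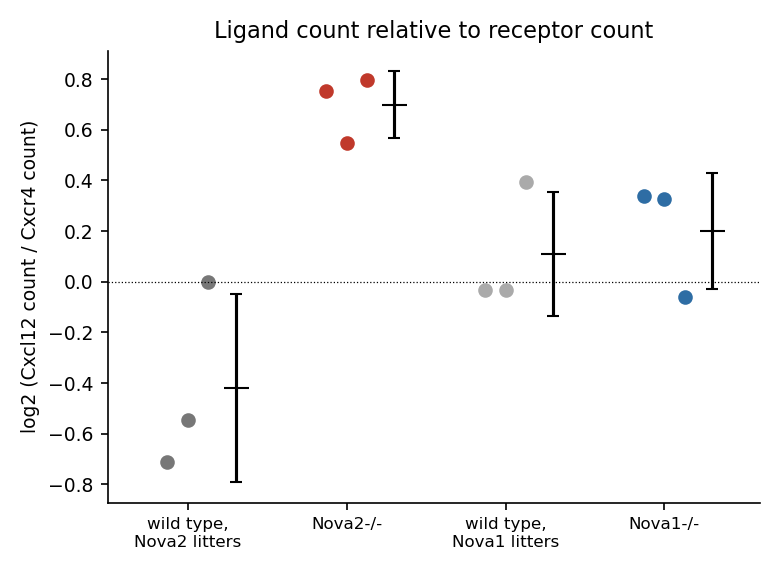
The log2 ratio of *Cxcl12* to *Cxcr4* counts in each mouse, with the mean and SD of 3 mice beside the points and a dotted line where the counts are equal. The *Nova2-/-* mice lie between 0.55 and 0.79, and their wild-type littermates lie at or below 0.

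Over the 12 cortices the log2 levels of ligand and receptor had a Pearson's r of -0.51 (permutation p = 0.0887) and a Spearman's rho of -0.50 (permutation p = 0.104), both with a Benjamini-Hochberg adjusted p of 0.104 over the 2 measures. Without the 2 mice farthest from the median *Cxcl12* level, wild-type replicates 1 and 2 of the *Nova2* litters, r was -0.36. Within the 6 mice of the *Nova2* litters r was -0.68 and within the 6 of the *Nova1* litters it was -0.20. All these values pool knockout and wild-type mice, and the permutations shuffled mice across the groups. They thus include the opposite group differences of the *Nova2* litters given above, and the relation within groups was not tested. The relation did not pass a test over all mice and was weaker without those wild-type mice.

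None of the other ligands and receptors on the pathway list passed edgeR's quasi-likelihood test in either knockout, and DESeq2 called *Hmgb1* lower in *Nova2-/-*. *Ackr3*, listed in the table under its older symbol *Cxcr7*, is the scavenging receptor of CXCL12. It was at 14.3, 13.3 and 14.0 CPM in *Nova2-/-* mice and at 10.2, 13.6 and 15.4 CPM in wild-type littermates, which overlapped, with a log2 fold change of 0.10 in *Nova2-/-* and 0.13 in *Nova1-/-*. *Cxcl14*, a chemokine known to act together with CXCL12, had log2 fold changes of -0.06 and -0.03. *Mif*, a cytokine that also signals through CXCR4, had -0.11 and 0.02. *Hmgb1*, whose nuclear protein can be released and bind CXCL12, had a log2 fold change of -0.43 in *Nova2-/-* (unadjusted p = 0.00150, adjusted p = 0.0756, edgeR's quasi-likelihood F test, Benjamini-Hochberg adjusted) and -0.07 in *Nova1-/-*. Every *Nova2-/-* mouse lay below every wild-type littermate, and DESeq2 gave an adjusted p of 0.00239. Its wild-type levels differed by -0.67 between the litters (adjusted p = 0.125, the same edgeR test). *Cd74*, a receptor of MIF, stayed at 0.6 CPM or below in the mean of every group.

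The pathway list held 45 genes, of which 44 passed the filter on low counts and *Ctsg*, which encodes a protease of CXCL12, did not. In *Nova2-/-* cortex 1 of the 44 was called higher and 0 lower, beside the shares of all genes given above. At an unadjusted p below 0.05 there were 6 higher and 7 lower, 13 of 44 in all, where 19.2% of all genes had such a p. The median log2 fold change of the list was -0.02, and that of all genes tested was 0.01. In *Nova1-/-* cortex 0 of 44 were called by edgeR's quasi-likelihood test and 0 had an unadjusted p below 0.05, where 7.44% of all genes did, and DESeq2 also called 0.

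The gene called was *Hspg2*, which encodes perlecan, a heparan sulfate proteoglycan of basement membranes. It rose from 15.9 ± 2.44 CPM (SD, n = 3) in wild-type to 33.2 ± 7.45 CPM (SD, n = 3) in *Nova2-/-* mice, which is 1.07 on the log2 scale with a standard error of 0.18 (adjusted p = 0.0377, edgeR's quasi-likelihood F test, Benjamini-Hochberg adjusted). It was also higher in the wild-type mice of the *Nova1* litters, at 29.7 ± 5.63 CPM (SD, n = 3), a difference of 0.91 between the wild-type cortices (adjusted p = 0.0287, the same edgeR test). With each of 5 single mice left out in turn its call in *Nova2-/-* was lost. The other heparan sulfate genes did not pass the test: the syndecan gene *Sdc4* had a log2 fold change of 0.13, and *Sulf1* and *Sulf2*, whose products trim sulfate groups from heparan sulfate, had 0.41 and -0.16. Among genes for proteases that cut CXCL12, *Dpp4* had 0.04, *Mmp2* 0.42, *Mmp9* 0.21 and *Mmp14* 0.41 in *Nova2-/-*, none past an FDR of 0.05.

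Below the receptor, no gene was called in either knockout by edgeR's quasi-likelihood test on the 6 mice of its litters, and DESeq2 called *Dock1* in *Nova2-/-*. With all 12 cortices in the edgeR fit, *Dock1* and *Stat3* were called higher and *Gnai1*, *Gng2*, *Grk6* and *Pak1* lower in *Nova2-/-*, with adjusted p from 0.0118 to 0.0437. That fit called 686 higher and 648 lower of all 16210 genes tested, against 109 and 57 of 15691 in the fit of 6. Of the 5 G protein genes *Gnai1*, *Gnb1* and *Gng2* had log2 fold changes of -0.22, -0.15 and -0.23 in *Nova2-/-*. Their unadjusted p was 0.00600, 0.0483 and 0.0168 in edgeR's quasi-likelihood test on the 6 mice of the *Nova2* litters. In the same fit *Gnai2* and *Gnai3* had 0.13 and -0.06. In the wild-type mice of the *Nova1* litters relative to those of the *Nova2* litters, the log2 differences of *Gnai1*, *Gnb1* and *Gng2* were -0.22, -0.22 and -0.34. The 8 genes of receptor desensitisation and trafficking ran from -0.26 for the receptor kinase gene *Grk6* to 0.18 for *Itch*, whose ubiquitin ligase sorts CXCR4 for breakdown. The arrestin genes *Arrb1* and *Arrb2* were at -0.13 and -0.03, the kinase genes *Adrbk1*, *Adrbk2* and *Grk5* at -0.04, -0.03 and 0.04, and *Rgs16*, which encodes a brake on G proteins, at -0.10.

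The 16 effector genes were centred on -0.01, the median of their log2 fold changes in *Nova2-/-* cortex. The highest were *Dock1*, an activator of RAC1, at 0.39 (unadjusted p = 0.00303, adjusted p = 0.0911, edgeR's quasi-likelihood F test, Benjamini-Hochberg adjusted), and *Stat3*, a transcription factor, also at 0.39 (adjusted p = 0.144, the same edgeR test). Between the wild-type cortices these genes differed by 0.36 and 0.45. The kinase genes *Pak1* and *Akt1* were at -0.19 and -0.17, the small GTPase gene *Rac1* was at -0.14, and *Rock1*, a kinase gene downstream of RHOA, was at 0.20. The effectors *Jak2*, *Pik3ca*, *Pik3cb*, *Pik3cg*, *Mapk3*, *Ptk2*, *Ptk2b*, *Rhoa* and *Elmo1*, lay between -0.10 and 0.21. In *Nova1-/-* cortex the 16 ran from -0.11 to 0.13.

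**Figure D4:**
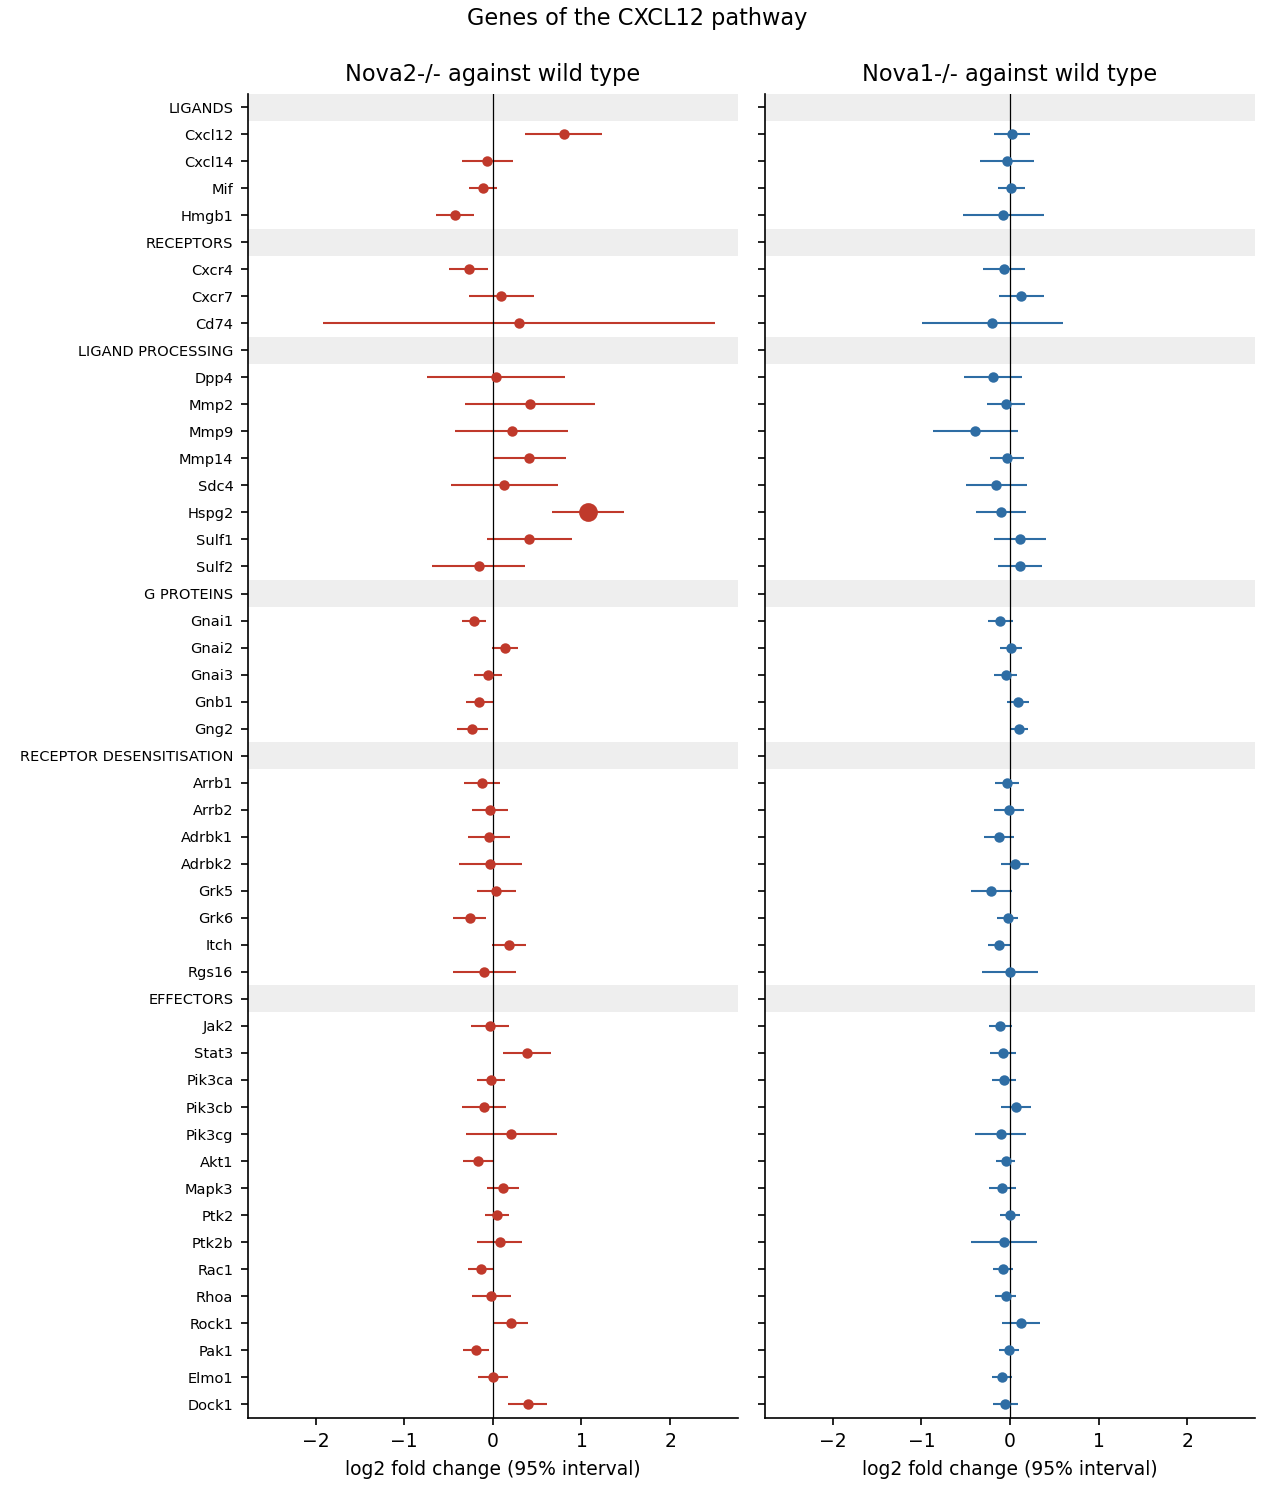
The log2 fold change of 43 tested genes of the CXCL12 pathway against wild-type littermates in *Nova2-/-* (left) and *Nova1-/-* cortex (right), with 95% intervals from edgeR and a larger point where the FDR is below 0.05. *Hspg2* at 1.07 is the single larger point, and *Cxcl12* at 0.80 is the next highest in *Nova2-/-*.

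Few chemokine genes had enough counts to be tested. Of 36 chemokine ligand genes 35 were in the table, 12 were tested in the *Nova2* litters and 0 passed an FDR of 0.05 in edgeR's quasi-likelihood test, with 3 higher and 1 lower at an unadjusted p below 0.05. The lowest p was that of *Ccl27a*, which encodes a skin-homing chemokine, at a log2 fold change of -0.50 (unadjusted p = 0.00237, adjusted p = 0.0839, the same edgeR test), and *Cxcl12* followed it. DESeq2 called *Cxcl12* higher and *Ccl27a* lower. Of 22 receptor genes 12 were tested and 0 passed, with 0 higher and 2 lower at an unadjusted p below 0.05, and *Cxcr4* had the lowest p. DESeq2 called 0 of the receptor genes. In 9 of the receptor genes and 19 of the ligand genes at least 1 cortex had a count of 0.

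The summed markers of meningeal, endothelial and mural cells, like *Cxcl12*, were higher in every *Nova2-/-* mouse than in every wild-type littermate. Of 16 meningeal fibroblast markers 4 were called higher and 0 lower in *Nova2-/-* (edgeR's quasi-likelihood test), all 16 had a log2 fold change above 0 with a median of 1.25, and in 12 the *Nova2-/-* mice all lay above the wild-type mice. Among all genes tested 0.695% were called higher and 12.4% lay above in this way. The summed level of the meningeal markers was 985 to 1173 CPM in *Nova2-/-* mice and 264, 331 and 658 CPM in wild-type littermates 1, 2 and 3, the same order as their *Cxcl12* levels. Among the *Nova2-/-* mice the order differed, with the highest *Cxcl12* level in replicate 1 and the highest sum in replicate 3. In the wild-type mice of the *Nova1* litters the sum was 881 to 1087 CPM, a range that overlaps that of *Nova2-/-* mice, while *Cxcl12* was at 25.7 to 32.0 CPM there. Of 12 endothelial markers 2 were called higher and 0 lower, and the summed level was 428 to 446 CPM in *Nova2-/-* mice against 321 to 370 CPM in the other 9 cortices. In 4 of them the *Nova2-/-* mice all lay above their wild-type littermates and in 8 the groups overlapped, with a median log2 fold change of 0.27. Of 10 mural cell markers 1 was called higher and 0 lower, with a sum of 253 to 271 CPM in *Nova2-/-* against 158 to 247 CPM in the others. In 7 of them the *Nova2-/-* mice all lay above their wild-type littermates and in 3 the groups overlapped. *Nova2-/-* replicate 1, with the highest *Cxcl12* level, had the lowest mural cell sum of its group. DESeq2 called 9 meningeal, 3 endothelial and 4 mural cell markers higher and 0 lower. Over all genes it called 454 higher and 352 lower of 22499. No marker of these 3 lists was at 0 in any cortex. The part of these cells in the *Cxcl12* result was not tested, and in bulk tissue more cells of a type and more RNA per cell cannot be told apart.

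**Figure D5:**
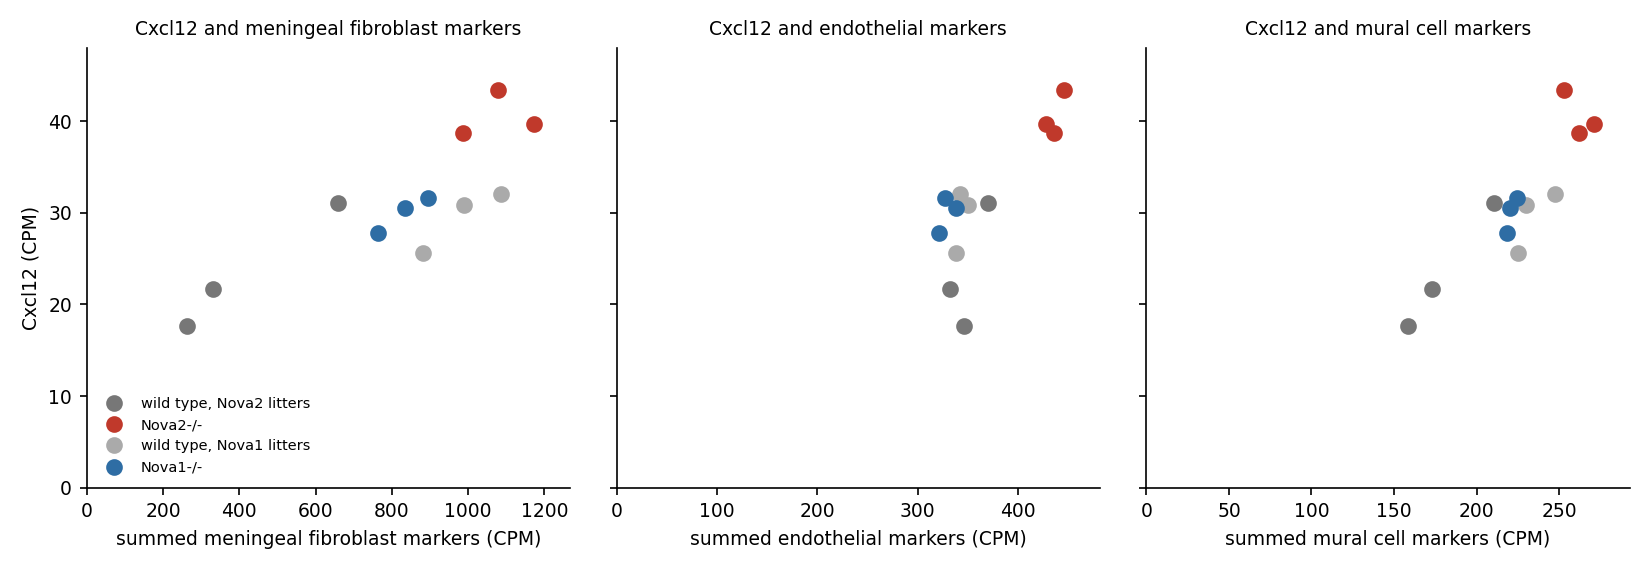
*Cxcl12* level in CPM against the summed CPM of 16 meningeal fibroblast markers, 12 endothelial markers and 10 mural cell markers, with 1 point for each of the 12 cortices coloured by group. On the meningeal axis the wild-type mice of the *Nova1* litters, at 881 to 1087 CPM, reach the *Nova2-/-* range while their *Cxcl12* stays at or below 32.0 CPM.

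Among markers of cells known to carry CXCR4, edgeR made 1 call. Of 7 Cajal-Retzius markers tested 0 were called in *Nova2-/-* by edgeR's quasi-likelihood test and 0 had an unadjusted p below 0.05, with a median log2 fold change of 0.35, and their sum was 905 to 1292 CPM in *Nova2-/-* and 722 to 1001 CPM in wild-type littermates. Of 16 interneuron markers 0 were called higher and 1, the somatostatin gene *Sst*, was called lower. At an unadjusted p below 0.05 in that test, 3 were higher and 1 was lower. In 5 of the 16 the *Nova2-/-* mice all lay above their wild-type littermates and in 1 all lay below. Of all genes 12.4% and 14.0% did so. The list had a median log2 fold change of 0.03 and a sum of 801 to 853 CPM against 732 to 802 CPM. Of 12 markers of microglia and macrophages, which also carry CXCR4, 0 were called, with 3 higher and 0 lower at an unadjusted p below 0.05, a median of 0.08 and a sum of 153 to 187 CPM against 107 to 139 CPM. This sum, like those of meningeal, endothelial and mural cells, was higher in every *Nova2-/-* mouse than in every wild-type littermate. Of 7 tested markers of intermediate progenitors 0 were called, with 2 higher and 0 lower at an unadjusted p below 0.05 and a median of 0.39. The 10 projection neuron markers had 0 calls and 0 below that p, while their sum was lower in every *Nova2-/-* mouse than in every wild-type littermate. In 1 of the 10 the *Nova2-/-* mice all lay below and in 9 the groups overlapped. None of 6 choroid plexus markers (1 below that p) and none of 7 red blood cell markers tested (0 below that p) was called, and the choroid plexus sum ran from 103 to 1533 CPM within *Nova2-/-* mice. Of these lists DESeq2 called 1 gene of microglia and macrophages, *Csf1r*, higher and *Sst* lower, and 0 of the others. The part of these cells in the *Cxcr4* result was not tested.

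By Pearson's r of log2 CPM over the 12 cortices and among 16210 genes, those most like *Cxcl12* were *Plin3* (0.95), *Ahnak* (0.95), *Itih5* (0.95), *Itpripl2* (0.95) and *Bicc1* (0.95). After the group means were taken out their r with *Cxcl12* was 0.86 to 0.96. Those most like *Cxcr4* were *Eif3l* (0.92), *Eif3e* (0.90), *Pes1* (0.90), *Lyrm4* (0.90) and *Tatdn1* (0.89), with 0.84 to 0.92 after the same step. The genes were picked by an r that includes the variation within groups, so the values after this step are no separate support. These are the highest of many values, the points share their libraries and scaling, and they are given as a description.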

How the data were processed

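Total RNA of the cortex was depleted of ribosomal RNA and sequenced in 12 mice, and reads were aligned by the authors to mm10 with OLego. The authors deposited expected counts per gene symbol without normalization. The counting program is not given in the sources used here. The log2 fold changes and FDR values of the authors' own edgeR comparisons, in the same table, were not used. The deposited splicing table gives *Δ*I as a score from -1 to 1 and its FDR, an adjusted p-value by the authors, per event in mm9 coordinates. Its starts count from 0 and were raised by 1.

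Counts were rounded and tested with edgeR 4.0.16 in R 4.3.3: TMM scaling, the default filter, a quasi-likelihood test with Benjamini-Hochberg adjustment over all genes tested, and an FDR threshold of 0.05. Each fit held the 6 mice compared, and the difference between knockouts used all 12. The test was checked on simulated counts. p-values measure the spread between these 3 mice a group. Exact permutation tests were used for the count ratio, and 100000 permutations for correlations. Python 3.11.15, pandas 2.3.3 and scipy 1.17.1 handled events and sequences, and matplotlib 3.10.9 the figures. Transcripts and sequences came from the GENCODE annotation and the genome of mm9. Of the pathway genes, all 45 were found in the table, 3 under older symbols.

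Named were both genes, the pathway genes, chemokine genes past the threshold or with the lowest p, and the 5 genes most correlated with each. *Sst* and *Csf1r* were named after their values were seen. These genes and lists were chosen with earlier results of these data known. The alternatives were upper-quartile scaling, no filter, a minimum of 10 counts in each sample, DESeq2 1.42.0, each mouse left out, a replicate block, all 12 mice in 1 fit, and other event limits. Transcript levels of the midbrain and hindbrain samples were not analysed here, and the values of 1 pathway gene and 1 motif sequence are not reported here.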

Additional observations from a re-analysis of the deposited data

Results flagged for a closer look

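*Hspg2*, the perlecan gene, differed between the knockouts by a test of the difference itself: its log2 fold change in *Nova2-/-* minus that in *Nova1-/-* was 1.16 with a standard error of 0.24 (adjusted p = 0.0287, edgeR's quasi-likelihood F test, Benjamini-Hochberg adjusted). The change was 1.07 in *Nova2-/-* and -0.10 in *Nova1-/-*. The wild-type cortices of the 2 sets of litters differed by 0.91 in this gene, and the meningeal marker sums given above moved with it; their part in the result was not tested.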

How the results depend on the processing

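Of 137 alternative values 120 were unchanged. For a fold change or ratio this means the same direction and side of the threshold, and for a number of genes or events the same number. The ratio values could not change side, because their tests cannot give a p below 0.05 with so few mice. For *Cxcl12* in *Nova2-/-* the log2 fold change was 0.80 with DESeq2 (adjusted p = 0.00170), 0.79 with all 12 cortices in one fit (adjusted p = 0.0116, edgeR), and 0.62 to 1.07 with a mouse left out. Its difference between the knockouts was 0.77 with DESeq2 (adjusted p = 0.0294) and 0.60 to 1.05 with a mouse left out. Its difference between the wild-type cortices was 0.16 to 0.62 with a mouse left out. In *Nova1-/-* cortex the values with a mouse left out crossed 0, from -0.064 to 0.084 for *Cxcl12* and from -0.15 to 0.050 for *Cxcr4*, and none passed. The number of pathway genes called in *Nova2-/-* was 1 in the fit as reported, 4 with DESeq2, 8 with all 12 cortices in one fit and 0 to 9 with a mouse left out, the 9 being without wild-type replicate 3. The causes were not tested. The replicate numbers of the *Nova2* litters share only a number, with correlations of 0.090, -0.015 and 0.145 between same-numbered mice, and not every mouse correlated best with its own number. With a replicate block the *Cxcl12* change was 0.84 (adjusted p = 0.0708, edgeR), the *Cxcr4* change -0.27, the pathway genes called 1 and the genes called 149 higher and 71 lower against 109 and 57. The paired sign-flip test of the ratio gave an exact p of 0.25, the smallest it allows. That outcome too was fixed in advance by the separation of the groups in both genes. The *Cxcl12* event was counted under all 3 other event limits. Over all genes DESeq2 called 454 higher and 352 lower of 22499 in *Nova2-/-*, and the fit of 12 called 686 and 648 of 16210. The edgeR fit without wild-type replicate 3 called 951 and 482 of 15874. Depth is unknown for *Δ*I.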
